A study of Mus musculus with 16 samples.

Results

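The core odor transduction cascade of olfactory sensory neurons was followed here as 10 genes: Omp, Gnal, Gnb1, Gng13, Adcy3, Cnga2, Cnga4, Cngb1, Ano2 and Slc12a2. The members were the probesets annotated with one of these symbols. Each gene had 1 probeset, which gave 10 of the 22206 gene probesets of the array. Of the 10, 9 were above background on all 16 arrays, and Cngb1 was above it on 0 of 16.

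The study measured messenger RNA on 16 Clariom S arrays from cells of the olfactory mucosa of S100a5-tauGFP mice. In these mice green fluorescent protein (GFP) reports S100a5, a gene whose expression in olfactory neurons depends on their activity, and all 4 groups carried the reporter. The 24 mice, of both sexes and 7 to 12 weeks old, were kept singly in chambers under an air flow of 3.1 L/min for 40 h, and after 26 h received 10 s pulses at 20 min intervals. The pulses held either odorant or filtered air, called vehicle. The mucosae of 3 mice were pooled for each sort, and each pool gave a GFP+ and a GFP- array. The groups, of 4 arrays each, were therefore GFP+ cells after odorant, GFP- cells after odorant, GFP+ cells after vehicle and GFP- cells after vehicle, from 8 pools. The sample labels name bourgeonal as the odorant whereas the title of the series names indole, so the agent is called the odorant here. The reporter limits the fractions as a model, since the sort divided cells by the GFP of S100a5 and did not select a cell type. The fractions also differed in markers of other cell types, given below, so they do not compare active with inactive neurons alone. A difference between the fractions in such bulk samples cannot tell fewer cells of a type from less RNA per cell.

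An odorant receptor that binds its ligand activates an olfactory G protein, whose alpha subunit stimulates an adenylyl cyclase in the cilia. The cyclic AMP so made opens a cyclic nucleotide-gated channel that admits calcium, and calcium then opens a chloride channel. Chloride leaves the cell because a cotransporter has loaded the neuron with it, and this outflow amplifies the current. OMP, the olfactory marker protein, is the classical marker of mature olfactory sensory neurons.

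Promoters of 4 members are shown because Adcy3 and Ano2 are the members that separated the fractions below, and Cnga2 and Cnga4 encode the channel that lies between them in the cascade. The sequences are from RefSeq (GRCm38.p6), where 7 of the 10 members had an entry, and each runs from 250 bases before to 50 bases after an annotated start, 5′ to 3′. Capitals mark CCCNNGGG, the palindromic core recognised by EBF factors, which reads the same on both strands.
Adcy3, chr12:4133147-4133446, + strand: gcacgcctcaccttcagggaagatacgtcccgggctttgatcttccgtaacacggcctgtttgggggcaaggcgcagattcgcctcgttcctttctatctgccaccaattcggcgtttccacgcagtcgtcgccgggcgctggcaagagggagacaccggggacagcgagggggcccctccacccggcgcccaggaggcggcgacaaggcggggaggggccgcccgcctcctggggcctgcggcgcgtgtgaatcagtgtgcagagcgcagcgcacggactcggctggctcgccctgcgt
Ano2, chr6:125690169-125690468, + strand: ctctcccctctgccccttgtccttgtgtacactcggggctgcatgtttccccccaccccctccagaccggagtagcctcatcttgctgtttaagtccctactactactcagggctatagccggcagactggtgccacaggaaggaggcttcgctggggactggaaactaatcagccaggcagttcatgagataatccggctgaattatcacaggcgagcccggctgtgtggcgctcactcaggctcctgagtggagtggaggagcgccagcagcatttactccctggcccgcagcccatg
Cnga2, chrX:71991599-71991898, + strand: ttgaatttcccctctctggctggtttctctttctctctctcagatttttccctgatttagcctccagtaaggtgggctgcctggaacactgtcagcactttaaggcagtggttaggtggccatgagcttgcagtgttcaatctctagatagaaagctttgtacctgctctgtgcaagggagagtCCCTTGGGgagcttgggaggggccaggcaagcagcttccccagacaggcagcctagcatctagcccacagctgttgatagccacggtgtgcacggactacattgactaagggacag
Cnga4, chr7:105404318-105404617, + strand: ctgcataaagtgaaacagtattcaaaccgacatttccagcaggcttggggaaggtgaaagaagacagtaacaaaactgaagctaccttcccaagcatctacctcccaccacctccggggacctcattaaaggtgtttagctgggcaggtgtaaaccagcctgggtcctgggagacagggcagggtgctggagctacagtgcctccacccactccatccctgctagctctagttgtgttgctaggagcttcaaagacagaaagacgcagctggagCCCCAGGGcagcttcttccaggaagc

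The core CCCNNGGG stood in 13.7% of the 32851 promoter windows of the table. The 7 members had 11 windows, and 5 of these held it, each in a different gene: Ano2, Cnga2, Cnga4, Cngb1 and Gng13. In Cnga2 it began 66 bases before the start and in Cnga4 24 bases after it. Neither Adcy3 window held it, and the match of Ano2 lay in another of its 3 windows than the one printed. A match describes letters and was not tested as a binding site.

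All values are log2 signals as deposited, so a difference of 1 means a doubling, and levels are compared only within a probeset. The background of an array was taken as the 95th percentile of its 23 antigenomic controls, probesets without a mouse target, and lay at 6.57 to 6.87. The brightest gene probeset of each array was at 19.34 to 19.44, and 46.7% to 50.9% of gene probesets were above background. The median gene probeset was at 6.29 to 6.38 on GFP+ arrays and at 6.64 to 6.76 on GFP- arrays. The reporter's own gene S100a5 was higher in GFP+ than in GFP- cells by 0.93 with vehicle (adjusted p = 0.0024) and by 1.14 with odorant (adjusted p = 0.0025). Its means in GFP- cells, 15.04 with vehicle and 14.85 with odorant, were still far above background, so both fractions gave a strong S100a5 signal. Kirrel2, another gene that depends on activity, was higher in GFP+ cells by 1.60 with vehicle (adjusted p = 0.0001) and was not called with odorant. Each adjusted p-value is from limma after Benjamini-Hochberg correction for the 22206 gene probesets, and a gene is called where it is under 0.05.

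The label of the cascade matched the data for 9 of the 10 genes, which gave strong signals in every group. Omp was at 18.66, 18.69, 18.67 and 18.67 in the vehicle GFP+ arrays of pools 1 to 4, and at 18.68, 18.58, 18.55 and 18.69 in the GFP- arrays of the same pools. With odorant it was at 18.62, 18.71, 18.68 and 18.75 in GFP+ cells and at 18.55, 18.53, 18.61 and 18.69 in GFP- cells. The fractions overlapped in both treatments, and the whole spread over 16 arrays was 18.53 to 18.75. Omp thus lay 0.648 to 0.875 below the brightest gene probeset of its array. Whether the scale is compressed at that height was not tested.

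**Figure D1:**
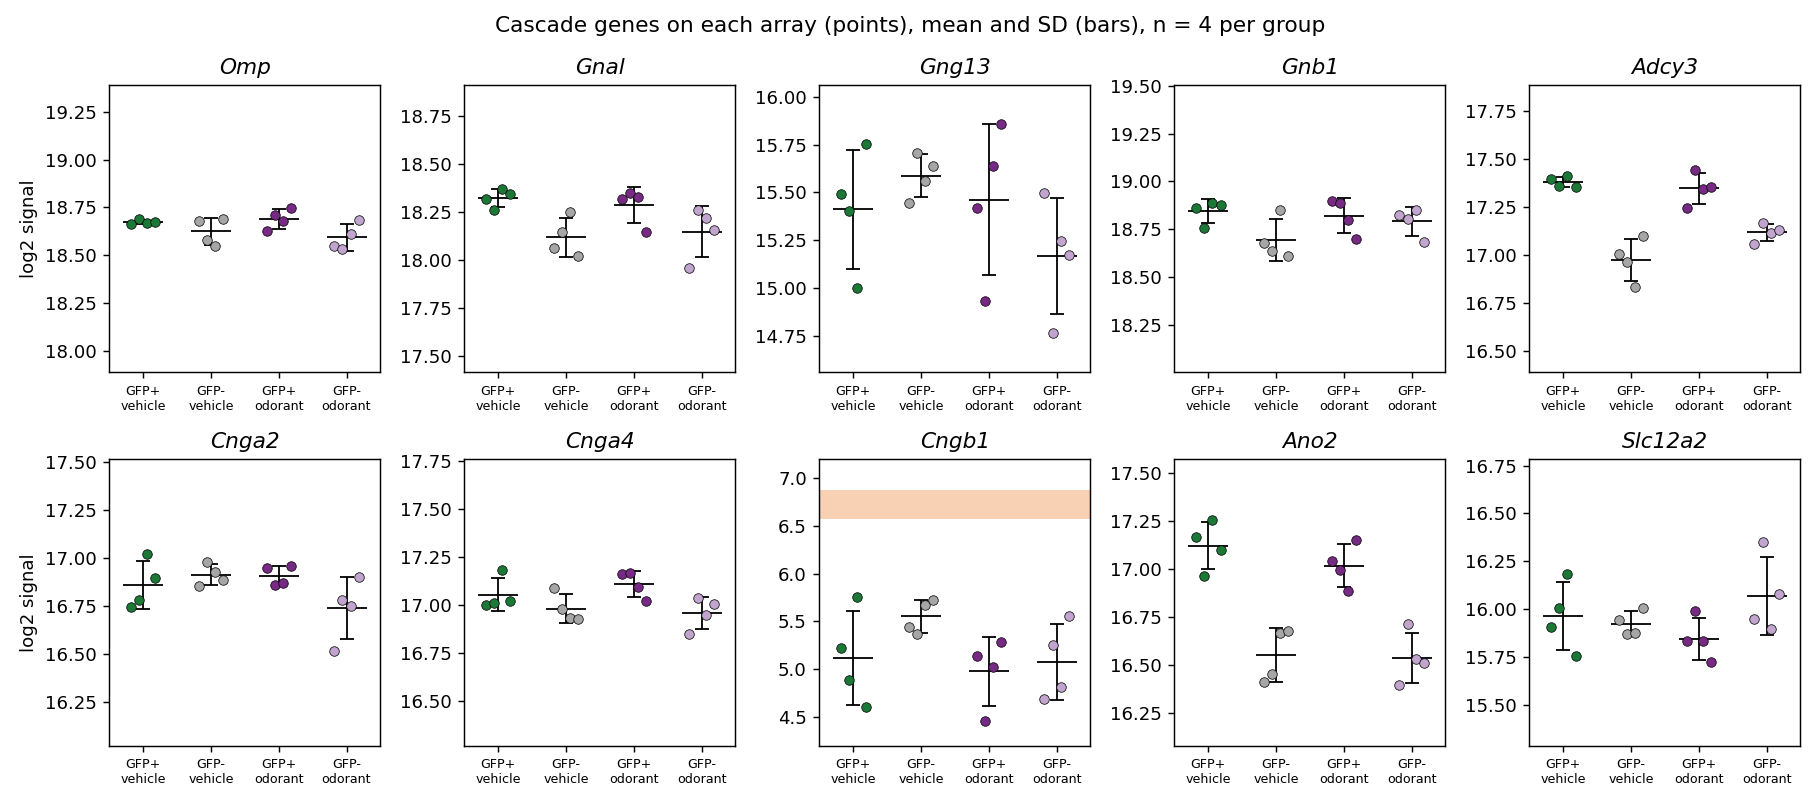
Log2 signal of each of the 10 cascade genes (vertical axes, 1 panel per gene) on the 16 arrays, by fraction and treatment, with points for arrays and bars for the mean and SD of 4 arrays. Ano2 and Adcy3 separate GFP+ from GFP- arrays in both treatments, Omp does not, and Cngb1 stays between 4.46 and 5.75, under the shaded range of background levels.

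The G protein of the cascade is a trimer of the alpha subunit that Gnal encodes, known as Golf, a beta subunit from Gnb1 and a gamma subunit from Gng13. Gnal was at 18.32, 18.26, 18.37 and 18.34 in vehicle GFP+ cells and at 18.06, 18.15, 18.25 and 18.02 in vehicle GFP- cells. After odorant the values were 18.32, 18.35, 18.33 and 18.15 in GFP+ cells and 17.96, 18.26, 18.22 and 18.15 in GFP- cells. The fractions did not overlap with vehicle and overlapped with odorant, where GFP+ pool 4 was the low array. The difference, GFP+ minus GFP-, was 0.20 with vehicle (95% interval -0.07 to 0.48, adjusted p = 0.30) and 0.14 with odorant (-0.17 to 0.44, adjusted p = 0.61), so Gnal was not called in either. Gnb1, a beta subunit that many cell types use, ranged from 18.61 to 18.90 over all arrays and overlapped between fractions in both treatments, with differences of 0.15 (adjusted p = 0.44) and 0.03 (adjusted p = 0.92).

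Gng13 had the widest spread of the 9 members above background, 1.09 over the 16 arrays. In vehicle GFP+ cells it was at 15.49, 15.40, 14.998 and 15.75, and in vehicle GFP- cells at 15.44, 15.71, 15.56 and 15.64. After odorant the levels were 15.42, 14.93, 15.64 and 15.86 in GFP+ cells and 15.50, 14.76, 15.25 and 15.17 in GFP- cells. Arrays of every group overlapped with those of every other, and low values occurred in both fractions, in pool 2 with odorant and in GFP+ pool 3 with vehicle. The fraction difference was -0.18 with vehicle (SE 0.17, adjusted p = 0.53) and 0.29 with odorant (SE 0.22, adjusted p = 0.49).

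Adcy3 encodes the adenylyl cyclase that the olfactory alpha subunit activates, and it was higher in the GFP+ cells. With vehicle it was at 17.40, 17.36, 17.41 and 17.36 in GFP+ cells and at 17.01, 16.97, 16.83 and 17.10 in GFP- cells. In odorant pools it was at 17.25, 17.44, 17.34 and 17.36 in GFP+ cells and at 17.06, 17.17, 17.12 and 17.13 in GFP- cells. All 8 GFP+ arrays lay above all 8 GFP- arrays, and within a fraction the treatments overlapped. The share of all probesets separated in this way over both treatments was not counted. Within a treatment, 11.9% of all probesets with vehicle and 7.86% with odorant were higher in GFP+ cells without overlap. The difference was 0.41 with vehicle (SE 0.12, 95% interval 0.13 to 0.68, 1.33-fold, adjusted p = 0.045), which passed the threshold, and 0.23 with odorant (SE 0.13, interval -0.05 to 0.51, adjusted p = 0.33), which did not. With the pool as a block the vehicle value had an adjusted p of 0.083, and it also missed the threshold when any 1 of the 4 pools was left out (0.35 to 0.46, adjusted p 0.091 to 0.171).

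The cyclic nucleotide-gated channel is built from the subunits that Cnga2, Cnga4 and Cngb1 encode, of which CNGA2 can form a channel alone and the other subunits modulate it. Cnga2 was at 16.74, 16.78, 17.02 and 16.89 in vehicle GFP+ cells and at 16.85, 16.98, 16.93 and 16.89 in vehicle GFP- cells. With odorant it was at 16.95, 16.86, 16.87 and 16.96 in GFP+ cells and at 16.52, 16.78, 16.75 and 16.90 in GFP- cells. The fractions overlapped in both treatments, with the lowest value in GFP- pool 1 after odorant, and the difference was -0.05 with vehicle (adjusted p = 0.82) and 0.17 with odorant (adjusted p = 0.52). Cnga4 ranged from 16.85 to 17.18 and also overlapped, with differences of 0.07 (adjusted p = 0.74) and 0.15 (adjusted p = 0.54). The Cngb1 probeset lay 0.818 to 2.40 below the background of its array on all 16 arrays. It therefore gave no measured level in any group, and its values in the plots and fits are not read as differences.

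Ano2 encodes the calcium-activated chloride channel of the cilia and showed the largest fraction difference of the 9 genes above background in each treatment. With vehicle it was at 17.17, 16.96, 17.26 and 17.10 in GFP+ cells and at 16.41, 16.45, 16.66 and 16.68 in GFP- cells. With odorant it was at 17.04, 16.99, 16.88 and 17.15 in GFP+ cells and at 16.39, 16.71, 16.53 and 16.51 in GFP- cells. All 8 GFP+ arrays lay above all 8 GFP- arrays, a separation not counted over all probesets. The difference was 0.57 with vehicle (SE 0.14, 95% interval 0.27 to 0.87, 1.49-fold, adjusted p = 0.015) and 0.48 with odorant (SE 0.14, interval 0.17 to 0.79, 1.40-fold, adjusted p = 0.049). The vehicle value kept its call with the pool as a block (adjusted p = 0.028) and lost it without pool 1 (adjusted p = 0.103) or pool 2 (adjusted p = 0.063). The odorant value lost it with the block (adjusted p = 0.074) and without any 1 of the 4 pools (0.43 to 0.55, adjusted p 0.080 to 0.227).

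Slc12a2 encodes the sodium, potassium and chloride cotransporter that loads the neuron with chloride. It was at 15.91, 16.01, 16.18 and 15.75 in vehicle GFP+ cells and at 15.94, 15.87, 15.87 and 16.01 in vehicle GFP- cells. In odorant pools it was at 15.83, 15.99, 15.84 and 15.72 in GFP+ cells and at 15.95, 16.35, 15.90 and 16.08 in GFP- cells. The fractions overlapped in both treatments, and GFP- pool 2 after odorant was the highest array. The difference was 0.04 with vehicle (adjusted p = 0.87) and -0.22 with odorant (adjusted p = 0.43).

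**Figure D2:**
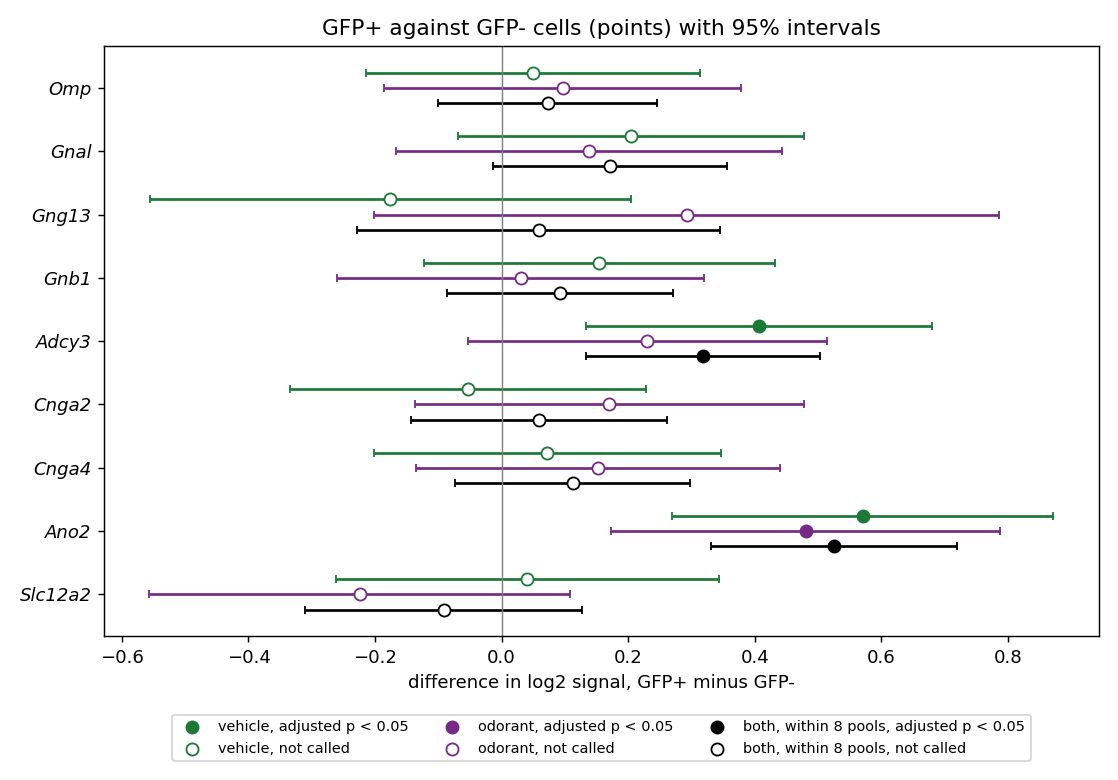
Difference in log2 signal between GFP+ and GFP- cells for the 9 cascade genes above background, with vehicle, with odorant and within the 8 pools of both treatments (points, with bars for the 95% interval of the fit). Filled points passed an adjusted p of 0.05: Ano2 in all 3 fits, at 0.57, 0.48 and 0.53, and Adcy3 with vehicle and within pools, at 0.41 and 0.32.

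Across the cascade, 2 of 10 members were called higher in GFP+ cells with vehicle and 0 lower, where 7.76% of all gene probesets were called higher and 9.97% lower. The median difference of the 10 members was 0.061 and that of all gene probesets 0.0818. Of the members, 3 had fractions that did not overlap with vehicle, all higher in GFP+ cells (Adcy3, Ano2 and Gnal), as had 11.9% of all probesets, while 11.0% were lower without overlap. With odorant 1 of 10 was called higher and 0 lower, against 3.57% and 7.84% of all probesets, with a median of 0.145 for the members and 0.102 for all. The fractions of 2 members did not overlap with odorant (Adcy3 and Ano2), both higher in GFP+ cells, as were 7.86% of all probesets, while 9.07% were lower without overlap. Relative to the median of all probesets, Ano2 was higher by 0.489 with vehicle and 0.379 with odorant, and Adcy3 by 0.325 and 0.128.

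These fraction differences depend on how the arrays are scaled. Subtracting each array's median moved the median difference of all probesets by 0.363 with vehicle, to 0.445. It called 7 of the 10 members higher, and with them 46.7% of all probesets. The share of called probesets that were higher in GFP+ cells was then 86.0%, against 43.8% as deposited and 55.6% after quantile normalization. With odorant these shares were 83.6%, 31.3% and 43.2%. Since median subtraction shifts all probesets of an array alike, it turns small negative differences positive and leaves the order of the members unchanged. The array median was itself under background on GFP+ arrays (6.29 to 6.38, background 6.57 to 6.87). On GFP- arrays it was near background (6.64 to 6.76, background 6.62 to 6.74). Median subtraction thus scaled the arrays by probesets without a clear signal, and the 7 calls are not read as a result about the members.

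Because both fractions of a pool came from the same mice, the difference was also taken within each of the 8 pools. Arrays were paired by replicate number, in a fit over both treatments added after the data had been seen. Ano2 was higher in GFP+ cells in 8 of 8 pools, by 0.76, 0.51, 0.59 and 0.42 in vehicle pools 1 to 4 and by 0.65, 0.28, 0.35 and 0.64 in odorant pools 1 to 4. Adcy3 was higher in 8 of 8 pools as well, by 0.39, 0.40, 0.58 and 0.26 with vehicle and by 0.19, 0.28, 0.23 and 0.23 with odorant. How many of all probesets were higher in 8 of 8 pools was not counted. The 4 odorant pools of Adcy3 lay closer together than its vehicle pools, and no vehicle pool of Ano2 fell under its lowest odorant pool. The mean difference was 0.53 for Ano2 (SE 0.089, 95% interval 0.33 to 0.72, adjusted p = 0.0008) and 0.32 for Adcy3 (SE 0.085, interval 0.13 to 0.50, adjusted p = 0.015). In this fit 2 of 10 members were called higher and 0 lower, where 15.2% of all probesets were called higher and 12.9% lower. Leaving out any 1 pool kept both calls, with 0.49 to 0.56 for Ano2 and 0.28 to 0.34 for Adcy3.

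**Figure D3:**
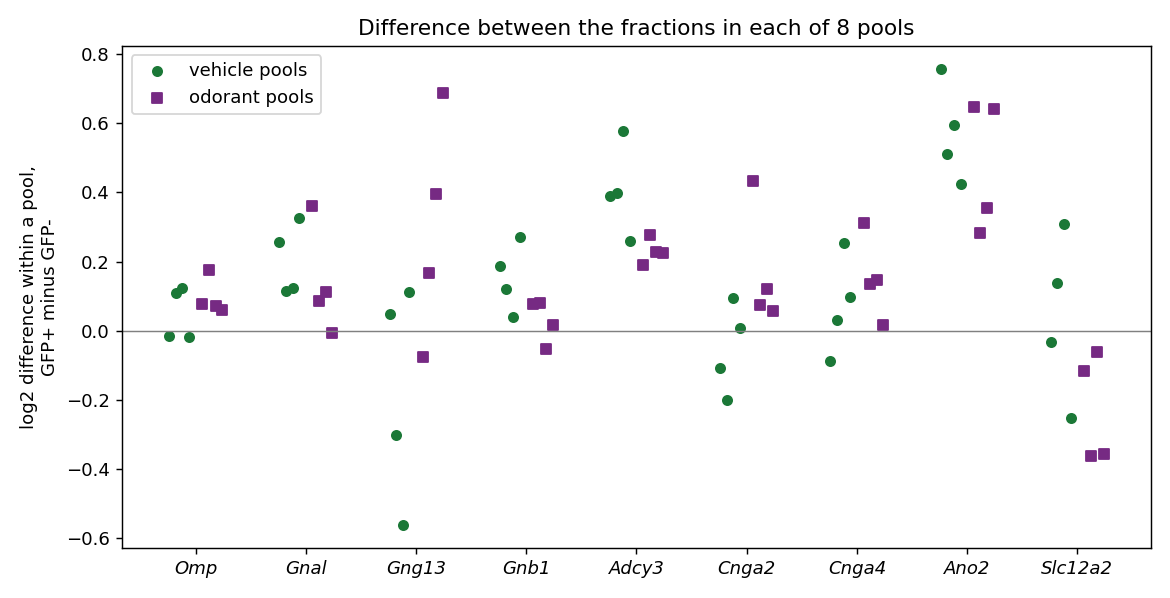
Difference in log2 signal between the GFP+ and the GFP- array of each of the 8 pools (points, coloured by treatment) for the 9 cascade genes above background. All 8 points of Ano2 (0.28 to 0.76) and of Adcy3 (0.19 to 0.58) are above 0, whereas Slc12a2 has 2 of 8 above 0 and Gng13 runs from -0.56 to 0.69.

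Of the other members above background, Gnal, Gnb1 and Cnga4 were higher in GFP+ cells in 7 of 8 pools, but were not called. Omp and Cnga2 were higher in 6, Gng13 in 5 and Slc12a2 in 2. The mean differences of these 7 genes ran from -0.09 for Slc12a2 to 0.17 for Gnal, and none was called. Within a pool, the fraction difference of Ano2 exceeded that of Omp by 0.109 to 0.774 (median 0.456, 8 of 8 pools), and that of Adcy3 exceeded it by 0.102 to 0.455 (median 0.221, 8 of 8 pools). Against Cnga2, Ano2 was higher by 0.210 to 0.866 (8 of 8 pools), while Adcy3 ran from -0.241 to 0.599 (7 of 8 pools). Against Slc12a2, both were higher in 8 of 8 pools. Ano2 and Adcy3 were set against the others because their differences were the largest in these same pools, so their excess is no separate support. How many of all probesets exceeded Omp in 8 of 8 pools was not counted. Such a contrast is free of any constant shift of an array but does not say which of the probesets changed. Whether the scale is compressed at the height of Omp was not tested, and the contrast with Omp carries that limit.

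The comparison of odorant with vehicle asked whether a 14 h odor exposure moved transcripts of the cascade. In GFP+ cells 0 of 10 members and 0.0% of all probesets were called, while 848 probesets (3.82%) and 0 members had an unadjusted p under 0.05. The differences of the 9 members above background, odorant minus vehicle, lay between -0.12 for Slc12a2 and 0.06 for Cnga4. Their 95% intervals all fell within -0.44 to 0.54, and those of Ano2 (-0.39 to 0.19) and Adcy3 (-0.30 to 0.23) included both rises and falls. The 2 groups overlapped for all 10 members, and 1.38% of all probesets were higher and 0.919% lower without overlap.

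In GFP- cells 0 of 10 members and 0.0% of all probesets were called, and 1520 probesets (6.84%) had an unadjusted p under 0.05. Among the members these were Gng13 and Cngb1, of which Cngb1 was at background. The Gng13 values listed above gave means of 15.17 ± 0.30 (SD, n = 4) with odorant and 15.59 ± 0.11 with vehicle. They differed by -0.42 (SE 0.18, 95% interval -0.80 to -0.03, adjusted p = 0.71) that was -0.53 to -0.28 without single pools. The lowest odorant value, 14.76 in pool 2, had a GFP+ partner at 14.93, and the highest odorant value lay above the lowest vehicle value. The other 8 members above background differed by -0.17 for Cnga2 to 0.15 for Slc12a2. The groups overlapped for all 10 members, and 2.24% of all probesets were higher and 1.92% lower without overlap.

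The interaction subtracts the odorant effect of the GFP- cells from that of the GFP+ cells, and so tests whether the fraction difference changed with treatment. It called 0 of 10 members and 0.0% of all probesets, with 1093 probesets (4.92%) and 0 members at an unadjusted p under 0.05. The largest member value was Gng13 at 0.47 (95% interval -0.14 to 1.08, adjusted p = 0.96). For Adcy3 it was -0.18 (interval -0.50 to 0.15) and for Ano2 -0.09 (-0.46 to 0.28), so the call of Adcy3 with vehicle alone does not show that its fraction difference depended on treatment.

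**Figure D4:**
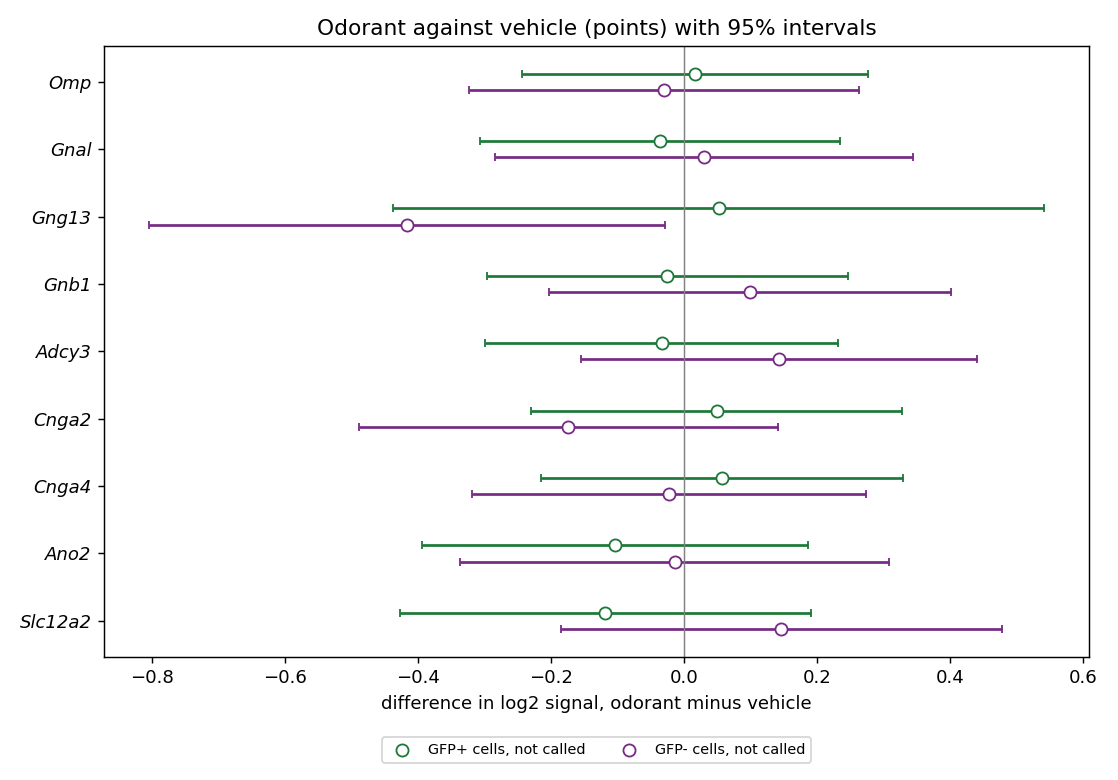
Difference in log2 signal between odorant and vehicle for the 9 cascade genes above background, in GFP+ and in GFP- cells (points, with bars for the 95% interval of the fit). No point passed an adjusted p of 0.05, and the interval of Gng13 in GFP- cells, -0.80 to -0.03, is the only one of the 18 that leaves out 0.

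Genes that end the signal were compared next, as a list of 10 with a probeset each. With vehicle, 4 of 10 were called higher in GFP+ cells and 2 lower (median 0.005), where 7.76% of all gene probesets were called higher and 9.97% lower. Of the 10, 3 were at background in both fractions. Without them the median was 0.607, with 4 called higher and 1 lower. Pde1c, a calmodulin-dependent phosphodiesterase of the cilia, was higher by 0.65 (adjusted p = 0.0085) and Slc24a4, the exchanger that expels calcium, by 0.61 (adjusted p = 0.0072). Pde4a, another cyclic AMP phosphodiesterase, at 0.65 and the sodium-calcium exchanger Slc8a1 at 1.05 complete the 4, both picked out once their values were known. Of the genes called lower, Rgs2, a regulator of G protein signalling, was at background in GFP+ cells and at least 5.12-fold lower there, and Grk3, a kinase that desensitises receptors, was at background in both fractions. With odorant, 2 were called higher (Pde1c at 0.69 and Slc8a1 at 1.08) and 2 lower, Rgs2 and Grk3 again. The median was 0.17, and 0.405 without the 3 genes at background in both fractions. The shares of all gene probesets were then 3.57% and 7.84%.

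Of 8 genes that assist receptors or regulate the cascade, 1 was called higher with vehicle and 0 with odorant (medians 0.28 and 0.159), and 0 were called lower. Among all gene probesets 7.76% were called higher with vehicle and 3.57% with odorant, so 1 of 8 with vehicle is near the common share. Within the 8 pools 3 of the 8 were called higher and 0 lower, where 15.2% of all probesets were called higher and 12.9% lower. The gene called with vehicle was Oxsr1 at 0.64 (adjusted p = 0.010), a kinase that regulates chloride cotransporters. Gfy, which encodes the ciliary targeting protein goofy, was at 0.32 (adjusted p = 0.11), the receptor transporter gene Rtp2 at 0.27 and Ric8b, a chaperone of the olfactory alpha subunit, at 0.29 (each with an adjusted p of 0.18). Of 7 transcription factors of olfactory neurons, Ebf1 at 0.44 (adjusted p = 0.029) and Emx2 at 0.48 (adjusted p = 0.039) were called higher with vehicle. With odorant 0 of the 7 were called, and 0 were lower in either treatment.

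Paralogs of the members were compared with background and between fractions. All 9 other adenylyl cyclase genes on the array were below background on every array, as were 13 of 17 channel and transporter paralogs, whereas 18 of 24 G protein paralogs were above it. The 4 channel and transporter paralogs above background, Ano6, Ano8, Ano10 and Slc12a7, were not called with either treatment, while within the 8 pools Ano8 was called higher and Ano6 and Ano10 lower. Of the 24 G protein paralogs, 1 was called higher with vehicle (Gnaz) and 8 lower (median -0.318), and with odorant 0 and 8. Leaving out genes at background in both fractions, 7 were called lower in each treatment. Among all gene probesets 9.97% were called lower with vehicle and 7.84% with odorant. Among the lower ones, Gnas, the alpha subunit used for cyclase stimulation in most other cells, was 19.0-fold lower in GFP+ cells with vehicle and Gnai2, an inhibitory alpha subunit, 32.8-fold lower. Gnas was near background in the vehicle GFP+ cells, at a mean of 7.00 and above it on 3 of 4 arrays, so its fold is not exact. Gng8, the gamma subunit of immature olfactory neurons, was at least 19.8-fold lower and Gng2 at least 4.58-fold lower.

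**Figure D5:**
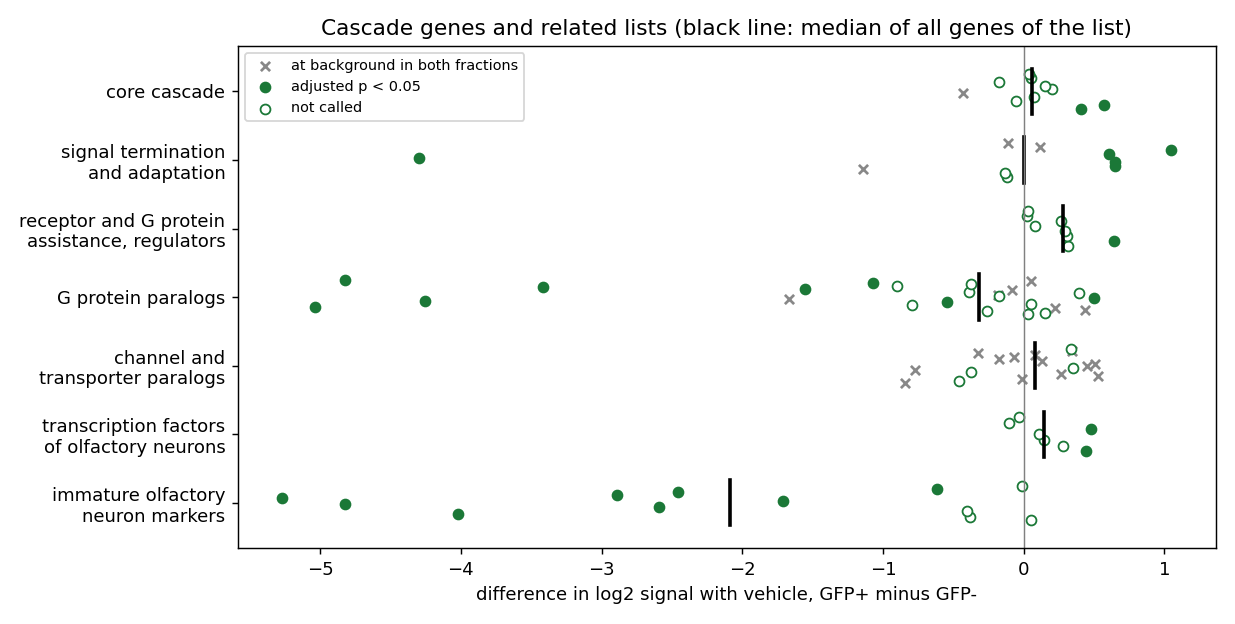
Difference in log2 signal between GFP+ and GFP- cells with vehicle (horizontal axis) for the genes of the cascade and of related lists (rows), with filled points for an adjusted p under 0.05, crosses for probesets at background in both fractions and a black line for the median of each list. The cascade lies around 0.061 with Adcy3 and Ano2 to the right, and 8 of 12 markers of immature neurons were called lower in GFP+ cells.

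Markers of other cells moved with the same sort, in which 9.97% of all gene probesets were called lower with vehicle and 7.84% with odorant. With vehicle, 8 of 12 markers of immature olfactory neurons were called lower in GFP+ cells, as were 5 of 5 of globose basal and dividing cells, 7 of 8 of sustentacular cells, 7 of 7 of microvillar and tuft cells, 9 of 10 of immune cells, 3 of 6 of Bowman glands, 1 of 4 of horizontal basal cells and the single red blood cell marker Alas2. Of the called genes, 2 of globose basal cells and 1 each of microvillar, Bowman gland and horizontal basal cells were at background in both fractions. With odorant the counts were 7 of 12, 5 of 5, 3 of 8, 7 of 7, 9 of 10, 2 of 6, 0 of 4 and Alas2. Leaving out genes at background in both fractions, the odorant counts were 3 for globose basal and dividing cells, 6 for microvillar and tuft cells and 7 for immune cells. The 6 markers of ensheathing and vessel cells were all at background, with none called with vehicle and 1 called lower with odorant. Nhlh1, a transcription factor of immature neurons, was at background in GFP+ cells and at least 11.7-fold lower there, while Dpysl3 was 16.2-fold lower and above background in both fractions. The mean signal of the 10 immune genes was 6.31 to 6.89 on vehicle GFP+ arrays and 10.6 to 12.0 on GFP- arrays, and that of the 12 immature markers 10.0 to 10.3 and 12.2 to 12.5. The part of these cells in the fraction differences of Ano2 and Adcy3 was not tested. Omp, in the same arrays, differed between the fractions by 0.05 with vehicle and 0.10 with odorant, with 95% intervals of -0.21 to 0.31 and -0.19 to 0.38. Omp lay only 0.648 to 0.875 below the brightest gene probeset of its array, where compression of the scale was not tested. These Omp values are therefore not read as the share of mature neurons in a fraction.

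Over the 16 arrays the members with the highest Pearson r were Adcy3 and Ano2, at 0.841, which fell to 0.167 once each group was centred on its mean. Gnal and Gnb1 had an r of 0.695, and 0.565 after centring, and Cnga2 and Cnga4 had 0.549 and 0.525. Gng13 ran opposite to Slc12a2, with an r of -0.84, and -0.858 after centring, and after centring also to Cnga4 (-0.795). Its highest r was 0.202, with Omp. Outside the cascade, the probesets most like the mean of all 10 members, Cngb1 included, were Efhc2 (r of 0.869), Tspan31 (0.863), Rab6a (0.852), Sbp (0.847) and Impdh1 (0.841), of which Sbp was below background on every array. After centring these were 0.713, 0.802, 0.683, 0.843 and 0.587. The members were not scaled to equal spread, so that mean follows most the members with the widest ranges, Cngb1 at background (1.29) and Gng13 (1.09). Likeness to it is not read as following the cascade. These values are descriptions over arrays that share pools, groups and scaling.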

How the data were processed

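Biotinylated cRNA was made from total RNA (50 to 100 ng), per the labels. The deposited log2 values were made by the authors with Affymetrix Expression Console, per the submitters' processing notes. For its version, background correction and normalization, and for the annotation's genome build, the sources used here give nothing. No further scaling was applied, and the columns without a sample numbered 0. Of 28846 probesets, 6640 controls were left out. Of the 22206 remaining, 19572 carried 1 symbol, 0 several and 2634 none, and all 19572 were found in a RefSeq gene table, which changed 0 symbols. The number of arrays, 4 a group, limits the precision.

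Each comparison used limma 3.58.1 (lmFit and eBayes) in R 4.3.3, with two-sided p-values adjusted by Benjamini and Hochberg's method for all gene probesets, and called at 0.05. Fraction and odorant comparisons used the 8 arrays of their groups and the interaction all 16. The fits were tested on simulated data with known shifts, in 66 or 67 probesets per size. The shifted probesets were drawn at random from those above background, and all others were simulated without a difference. A shift of 0.5 was called in 1.49% of them in each odorant comparison, 4.48% in each fraction comparison and 0% in the interaction. Shifts of 1 were called in 37.3% to 56.7% and shifts of 2 in 89.4% to 92.4%. The measured fraction comparisons called 3936 probesets with vehicle and 2535 with odorant, so the correction was less strict there than in the simulation. The rates also average over probesets of unlike spread, and are not the sensitivity for the members. A member without a call is still not shown to be unchanged. Plots were drawn with matplotlib 3.10.9. Alternatives were quantile normalization, subtraction of array medians, a filter that keeps probesets above background on at least 4 arrays, a spread shared over 16 arrays, a replicate block and leaving out single replicates. For a fold given as a bound, values under background were raised to it.

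Members and lists were chosen with earlier results of these data known. Named genes were all members, S100a5, up to 4 genes of each other list with the smallest p between vehicle fractions, any list gene called in an odorant comparison (there was none), and the 5 probesets most like the members' mean. Gnaz, Pde4a, Slc8a1, Ano6, Ano8 and Slc12a7 are not covered by it and were picked out once their values were known.

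The GFP+ and GFP- arrays of 1 number and treatment were taken to come from the same pooled mice. The 24 mice in pools of 3 make 8 pools, and the shared numbers of the labels were read as the pairing. Across genes, deviations from group means of same-numbered fractions correlated at 0.113 to 0.156 with vehicle and at 0.014 to 0.356 with odorant. With vehicle 8 of 8 arrays correlated best with their own number in the other fraction, and with odorant 5 of 8. The pairing with odorant is therefore less clear in the data. Numbers of odorant and vehicle pools correlated at -0.034 to 0.254 in GFP+ and -0.104 to 0.305 in GFP- cells, and were not taken as pairs. There 4 of 8 and 5 of 8 arrays correlated best with their own number. The pools are separate mice.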

Additional observations from a re-analysis of the deposited data

Results flagged for a closer look

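Of 40 groups of 4 arrays (10 members in 4 groups), 2 held an array whose gap to the others exceeded Dixon's critical value of 0.829, and chance gives about 1 in 20. Gnal in GFP+ cells after odorant was at 18.1485 in pool 4, under the other arrays at 18.3179 to 18.3502 (ratio 0.84). Cnga4 in GFP+ cells after vehicle was at 17.182 in pool 3, over the other arrays at 17.0003 to 17.0229 (ratio 0.876).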

How the results depend on the processing

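The odorant and interaction comparisons called 0 members under every alternative run, and 0 probesets in each except for 3 in GFP+ cells without vehicle replicate 4 (range 0 to 3 without single replicates). Subtracting array medians called 7 members and 12050 probesets with vehicle, 7 and 9277 with odorant, and 8 and 17337 within pools. With the replicate block 1 member was called with vehicle and 0 with odorant, and no other member call changed. Without single replicates 0 to 1 members were called with vehicle and 0 with odorant, with 2479 to 3002 probesets called with vehicle, 3936 as reported. Signs turned in values that were not called. For odorant against vehicle in GFP- cells, median subtraction gave 0.0077 for Omp, 0.0153 for Cnga4 and 0.0245 for Ano2, and quantile normalization 0.0766 for Cnga4 and 0.0165 for Ano2. Between fractions, median subtraction gave 0.1873 for Gng13 and 0.311 for Cnga2 with vehicle, 0.2132 for Cngb1 and 0.0917 for Slc12a2 with odorant, and 0.0717 for Cngb1 and 0.2478 for Slc12a2 within pools. Quantile normalization gave -0.0409 for Omp with vehicle and 0.0089 for Cngb1 with odorant. In the interaction they gave -0.0007 for Omp (medians) and -0.0364 for Cnga4 (quantile). Leaving out single replicates, the ranges that crossed 0 were, for odorant against vehicle in GFP+ cells, -0.0025 to 0.038 (Omp), -0.058 to 0.0093 (Gnal), -0.086 to 0.2284 (Gng13), -0.0558 to 0.0149 (Gnb1) and -0.3122 to 0.0703 (Cngb1). In GFP- cells they were -0.0083 to 0.0936 (Gnal), -0.049 to 0.0135 (Cnga4) and -0.072 to 0.0331 (Ano2). Between fractions they were -0.049 to 0.1381 (Slc12a2, vehicle), -0.2857 to 0.1273 (Cngb1, odorant) and -0.0312 to 0.1469 (Gng13, within pools). The cause of these shifts was not tested, beyond the move of the median of all probesets given above. Cngb1 is limited by background. The 95% intervals of the 9 other members reached 0.264 to 0.38 to either side between vehicle fractions, where their median difference was 0.0724, and 0.26 to 0.489 for odorant against vehicle in GFP+ cells, where it was -0.0254.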
